A study of Oryza sativa Indica Group with 12 samples.

Results

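The 10 genes described here make or modify the diterpenoid backbones of the rice phytoalexins, and each was read by 1 probe set of an Affymetrix rice array. They were picked by name, CPS2, CPS4, CYP99A2, CYP99A3, CYP71Z6, CYP71Z7, CYP76M5, CYP76M6, CYP76M7 and CYP76M8, with their levels in all 4 groups of the study already known. They are 10 of 57381 probe sets on the array, of which 57258 were tested once 123 controls were set aside. Since the choice used their levels in every group, all values of the 10 genes are a description. P-values are printed only for genes outside the 10, and how many of the 10 passed the thresholds of the fit over all probe sets is given beside the share of all probe sets that did, with nothing read from it.

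Diterpenoid phytoalexins are defence compounds that rice makes from geranylgeranyl diphosphate, the precursor it also uses for gibberellin. A copalyl diphosphate synthase (CPS) first folds the precursor into an ent or a syn form, a kaurene synthase-like enzyme (KSL) then closes the remaining rings, and cytochromes P450 (CYP) and a dehydrogenase add oxygen. The syn branch gives momilactones, and the ent branch gives phytocassanes and oryzalexins. The genes for much of the syn branch lie side by side on chromosome 4, and several for the ent branch lie side by side on chromosome 2. Both sets are known for induction by fungal elicitors and ultraviolet light in cultured rice cells and leaves, and momilactones are also released by roots.

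Hydroponic seedlings of the indica rice IR64 were used, with 3 biological replicates for each of 4 groups and 1 array per replicate. In the resupplied group (KR), seedlings that had grown 5 days normally and 5 days on medium with 0 mM K2SO4 were moved to 0.409 mM K2SO4 for 6 h. The potassium-minus group (KM) had the same 5 days at 0 mM K2SO4 and no resupply. The potassium-plus group (KP) spent those 5 days at 0.409 mM K2SO4, and the 0h group was harvested after the first 5 days, before any transfer. A treatment tag of the 0h arrays names the potassium-deficient medium, against their titles and source names, and they were kept as 0h. All groups share the cultivar and the first 5 days of growth, and none was given a pathogen or an elicitor. The time of day at harvest is not given, so the resupply cannot be told apart from 6 h of the day. Potassium was withheld and returned as K2SO4, and the methods name no sulfate salt in its place. Potassium therefore cannot be told apart from the sulfate given with it, although MgSO4 was also in the medium.

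Levels are log2 values of the deposited normalised intensities, so 1 unit is a 2-fold difference, and levels of different probe sets are not compared. The median probe set of an array read 2.79 to 2.83 in KR, against 2.70 to 2.74 elsewhere, and a level close to these is termed near background. Where 1 of the groups is at that level, background limits how large a difference can appear. Replicates correlated at Pearson r of 0.985 to 0.997 over all probe sets. The RNA came from whole seedlings without their seeds, per the study's methods, so a bulk value was read in which fewer cells of a type and less RNA per cell cannot be told apart. The summed intensity of 3 of 4 shoot markers was 36542 to 37292 in KR, 24095 to 24883 in KM, 29242 to 33222 in KP and 28589 to 29523 at 0h. That of 3 of 4 root markers was 4990 to 5425 in KR, 2519 to 3091 in KM, 2915 to 5372 in KP and 556 to 615 at 0h. For the 2 grain alpha-amylases RAMY1A and RAMY3D it was 2134 to 4799 in KR, 9986 to 11636 in KM, 13.5 to 2041 in KP and 11.7 to 46.3 at 0h, and no marker was at 0. A sum follows its brightest markers, and single markers did not all go with it. The log2 difference KP minus 0h was 3.03 and 3.83 for the root markers LSI1 and LSI2, but -0.39 for NRAMP5. KR minus KM was -1.82 for RAMY1A but 1.46 for RAMY3D. KM minus KP was -0.76 and -1.05 for the shoot markers CAB2R and PORB, but 0.16, with overlap, for RBCS2. No sum is therefore read as the share of a tissue. The part of these markers in the results below was not tested.

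The ent and syn branches begin at CPS2 and CPS4, and both genes had their highest arrays in KM. CPS2, on chromosome 2, makes ent-copalyl diphosphate, the entry to phytocassanes and oryzalexins. Its level was 7.53, 6.75 and 5.74 in KR, 8.95, 8.98 and 8.75 in KM, 6.92, 7.96 and 6.49 in KP, and 6.38, 6.45 and 7.84 at 0h. Every KM array lay above every other array, while KR, KP and 0h overlapped each other. CPS4, on chromosome 4, makes syn-copalyl diphosphate for the momilactones and oryzalexin S. Its level was 5.32, 3.79 and 3.26 in KR, 7.62, 7.67 and 7.30 in KM, 6.72, 7.33 and 6.00 in KP, and 4.53, 4.18 and 5.69 at 0h. For CPS4 the KM arrays overlapped the KP arrays through KP replicate 2, and both stood above all KR and 0h arrays. Its probe set ends in _a_at, the mark for probes shared by several transcripts of 1 gene.

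**Figure D1:**
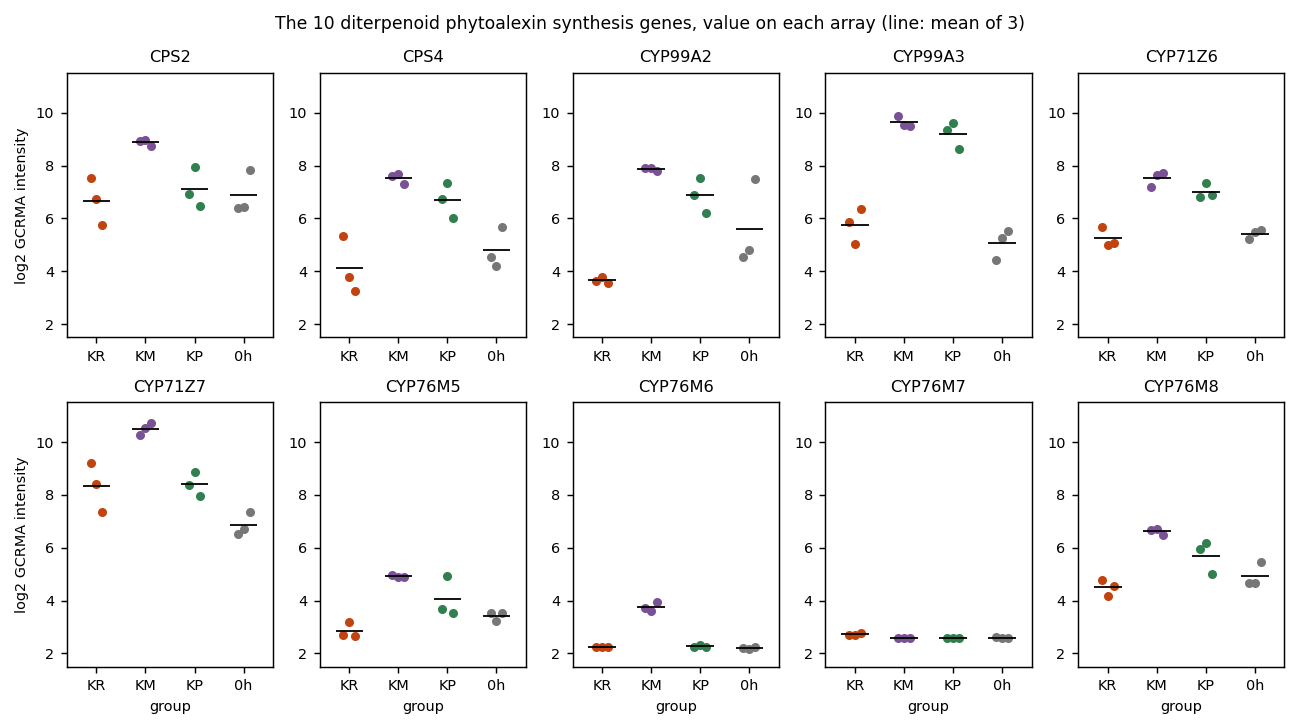
Log2 intensity of the 10 genes (vertical axis) on each of the 12 arrays, by group (horizontal axis: KR, KM, KP, 0h), with points for single arrays and a line for the mean of 3. KM has the highest mean for 9 genes, while CYP76M7 stays between 2.56 and 2.76 on every array.

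CYP99A2 and CYP99A3, neighbours of CPS4 on chromosome 4, encode P450s of momilactone synthesis that oxidise the syn-pimaradiene backbone. CYP99A2 read 3.65, 3.77 and 3.54 in KR, 7.91, 7.92 and 7.79 in KM, 6.89, 7.54 and 6.23 in KP, and 4.53, 4.81 and 7.51 at 0h. The KR arrays were the 3 lowest, the KM arrays the 3 highest, and 0h replicate 3 stood within the KP range, far from the other 0h arrays. CYP99A3 read 5.88, 5.04 and 6.36 in KR, 9.87, 9.55 and 9.49 in KM, 9.36, 9.63 and 8.62 in KP, and 4.42, 5.25 and 5.54 at 0h. Here KM and KP overlapped, KR and 0h overlapped, and a gap of over 2 units separated these pairs of groups.

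The P450 genes of the chromosome 2 cluster are known mainly for steps on ent backbones, though not all are confined to them. CYP71Z7 encodes a hydroxylase of phytocassane synthesis, and it read 9.20, 8.40 and 7.35 in KR, 10.28, 10.52 and 10.71 in KM, 8.36, 8.87 and 7.97 in KP, and 6.53, 6.71 and 7.37 at 0h. Its KM arrays were above all others, and its KR arrays overlapped both KP and 0h. CYP71Z6, which acts on ent-isokaurene, read 5.69, 4.98 and 5.09 in KR, 7.20, 7.63 and 7.73 in KM, 6.83, 7.34 and 6.90 in KP, and 5.23, 5.48 and 5.55 at 0h. For CYP71Z6 the KM and KP arrays overlapped, and both groups lay above all KR and 0h arrays.

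The CYP76M subfamily holds hydroxylases of several ent-diterpenes. CYP76M8, of oryzalexin synthesis, read 4.79, 4.16 and 4.57 in KR, 6.67, 6.70 and 6.50 in KM, 5.93, 6.18 and 5.00 in KP, and 4.65, 4.68 and 5.46 at 0h. Its KM arrays were the 3 highest, and its probe set ends in _x_at, the mark for probes that may also bind related transcripts. CYP76M5 read 2.69, 3.19 and 2.67 in KR, 4.96, 4.88 and 4.91 in KM, 3.67, 4.93 and 3.52 in KP, and 3.53, 3.24 and 3.52 at 0h. Its KM arrays lay close together, KP replicate 2 reached them, and KR was near background. CYP76M6, another gene of oryzalexin synthesis, read 3.73, 3.61 and 3.95 in KM, while its other 9 arrays lay between 2.17 and 2.32. It thus stood above background only in KM, and a second probe set of the gene read 2.49 to 2.61 on all 12 arrays and did not show the pattern.

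The probe set named CYP76M7 was the exception among the 10. The name is used for a hydroxylase of phytocassane synthesis, but the RefSeq table used here puts it on a chromosome 6 gene that also carries a chromosome 2 synonym, so what the probe set reads is uncertain. It read 2.70, 2.71 and 2.76 in KR, 2.58, 2.56 and 2.58 in KM, 2.58, 2.57 and 2.57 in KP, and 2.61, 2.57 and 2.57 at 0h. All of these were near background, with KR highest, as the KR array medians also were. Of the 10 genes 8 had a mean of at least 4 in 1 group or more, and CYP76M6 and CYP76M7 did not.

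Across the 10 genes the order of the group means was KM, then KP, then 0h or KR for 9, all but CYP76M7. KM and KP arrays did not overlap for 5 of those 9 (CPS2, CYP99A2, CYP71Z7, CYP76M6 and CYP76M8) and overlapped for CPS4, CYP99A3, CYP71Z6 and CYP76M5. KP stood clear of the next group for CPS4, CYP99A3 and CYP71Z6 only. KR had the lowest mean for 6 genes and 0h for 3, and these 2 groups overlapped in all 9 but CYP99A2, CYP76M5 and CYP76M6.

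KR against KM asks what 6 h of potassium resupply did after 5 days without it, and it gave the difference of largest size among the 4 comparisons for 8 of the 10 genes. KR was lower than KM with no overlap for 9 genes, against 11.6% of all probe sets that were lower without overlap, and CYP76M7 was higher without overlap, as were 52.7% of all. The 9 also passed an adjusted p under 0.05 and a 2-fold difference, which 2.06% of all probe sets did downward and 1.75% upward. With intensities under 16 set to 16, 6 of the 10 passed. No support is drawn from these counts, because the levels chose the genes. Among these 9, the syn-branch genes of chromosome 4 had the larger differences. CYP99A2 was 3.65 ± 0.12 in KR and 7.87 ± 0.08 in KM (SD, n = 3 each), a log2 difference of -4.22 ± 0.69 (limma standard error) or 18.7-fold lower. CYP99A3 was 14.7-fold lower (-3.88 ± 0.41) and CPS4 10.6-fold lower (-3.41 ± 0.58). On chromosome 2 the log2 differences spanned -2.27 ± 0.22 for CYP71Z6 to -1.53 ± 0.07 for CYP76M6, with CPS2 at -2.22 ± 0.56, a 4.65-fold lower level. The median difference was -3.88 for the 3 genes of chromosome 4 and -2.15 for the 6 of chromosome 2, and the 2 sets of values did not overlap. Over all 10 it was -2.20, beside 0.04 for all probe sets.

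**Figure D2:**
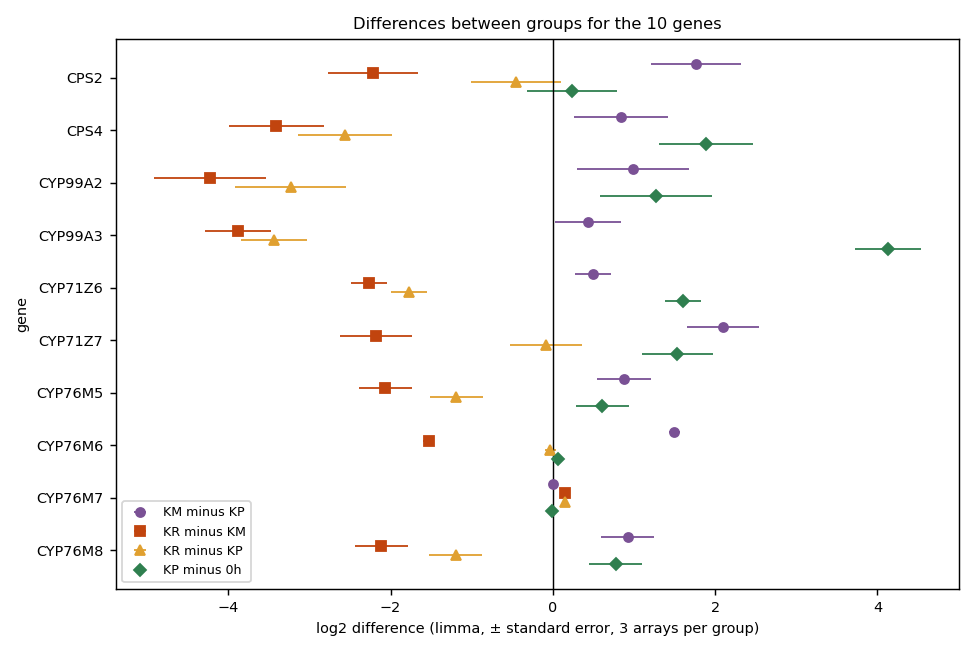
Log2 differences between groups (horizontal axis) for the 10 genes (vertical axis), with limma standard errors and 3 arrays per group. KR minus KM reaches -4.22 for CYP99A2, and KM minus KP is above 1 only for CPS2, CYP71Z7 and CYP76M6.

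KM against KP asks what 5 days without potassium did, and here the largest differences were those of chromosome 2 genes. CYP71Z7 was 10.50 ± 0.22 in KM and 8.40 ± 0.45 in KP (SD, n = 3 each), a log2 difference of 2.10 ± 0.44 or 4.28-fold higher. CPS2 was higher by 1.77 ± 0.56 and CYP76M6 by 1.498 ± 0.07, which is 2.82-fold with KP near background. The momilactone genes differed by less, at 0.99 ± 0.69 for CYP99A2, 0.84 ± 0.58 for CPS4 and 0.44 ± 0.41 for CYP99A3. The medians were 1.21 for chromosome 2 and 0.84 for chromosome 4, with overlapping values. KM was higher than KP without overlap for 5 of the 10 genes, against 13.7% of all probe sets. CYP71Z7 and CYP76M6 passed both thresholds, which 0.954% of all probe sets did upward and 1.59% downward. That number was 1 without KP replicate 1, KP replicate 3, KM replicate 2 or KM replicate 3. The median of the 10 differences was 0.90, beside -0.00 for all probe sets.

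KR against KP compares resupplied seedlings with seedlings that were never deprived. It shares its KR arrays with the comparison to KM and its KP arrays with that of KM to KP, so these values are not independent of each other. CYP99A3 was 10.9-fold lower in KR (-3.44 ± 0.41), CYP99A2 9.39-fold lower (-3.23 ± 0.69) and CPS4 differed by -2.56 ± 0.58, all without overlap. On chromosome 2, CYP71Z7 (-0.09 ± 0.44), CPS2 (-0.45 ± 0.56) and CYP76M6 (-0.03 ± 0.07) overlapped, while CYP71Z6 was 3.41-fold lower (-1.77 ± 0.22). CYP76M6 was near background in both KR and KP, so its value, which also enters the chromosome 2 median, could hardly show a difference. CYP76M5 and CYP76M8 were 2.28-fold and 2.29-fold lower without overlap. The medians were -3.23 for chromosome 4 and -0.82 for chromosome 2, where the values did not overlap, and -1.19 for all 10 genes, beside 0.05 for all probe sets. In all 6 genes were lower without overlap, against 9.87% of all probe sets, and the same 6 passed both thresholds, which 2.06% of all did downward and 1.15% upward. CYP76M7 was higher without overlap, as were 52.5% of all.

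Between 0h and KP the seedlings grew for 5 more days with potassium. CYP99A3 had the largest difference, at 9.20 ± 0.52 in KP and 5.07 ± 0.58 at 0h (SD, n = 3 each), a log2 difference of 4.13 ± 0.41 or 17.5-fold higher. CPS4 was higher by 1.89 ± 0.58, CYP71Z6 by 1.61 ± 0.22 and CYP71Z7 by 1.54 ± 0.44. These 4 genes did not overlap, against 14.4% of all probe sets that were higher without overlap, and they passed both thresholds, as did 5.87% of all upward and 5.71% downward. The number past the thresholds was 2 without KP replicate 1, KP replicate 2, 0h replicate 1 or 0h replicate 2. CPS2 (0.23 ± 0.56), CYP76M5, CYP76M6, CYP76M8 (0.77 ± 0.33) and CYP99A2 (1.27 ± 0.69) overlapped. The median was 1.02 over the 10 genes and -0.01 over all probe sets.

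The arrays of a group did not vary independently from gene to gene. Leaving aside CYP76M7, KP replicate 2 was the highest KP array for 9 of 9 genes and KP replicate 3 the lowest for 8. At 0h, replicate 3 was highest for 8 of 9, and in KR, replicate 3 was lowest for 6. KM arrays lay closest together, with a median range of 0.29 over the 10 genes, against 0.67 in KR, 1.098 in KP and 0.82 at 0h. The widest range was 2.99, for CYP99A2 at 0h. Over the 36 pairs of these 9 genes and all 12 arrays, Pearson r of the levels was 0.568 to 0.948 (median 0.823). For deviations from the group means it was 0.042 to 0.945 (median 0.411) and above 0 in all 36 pairs. CPS2 and CPS4, which begin different branches on different chromosomes, had the highest of these, at 0.945, and CYP99A3 with CYP76M6 the lowest. The points share arrays and normalisation, so the values are a description. RAMY1A read 10.99 in KP replicate 1, 3.49 in KP replicate 2 and 2.54 in KP replicate 3, and its part in the spread was not tested.

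The RefSeq annotation places 9 of the 10 genes in 2 short runs of neighbouring genes. The run on chromosome 2, from CYP76M5 to CYP76M6, holds 10 protein-coding genes, of which 6 are among the 10 and 3 others have a probe set. One of those 3, LOC4329723, between CYP76M8 and KSL7, has no enzyme name there and was not checked against the chromosome 2 synonym of CYP76M7. It read 7.11, 6.32 and 5.36 in KR, 9.48, 9.50 and 9.46 in KM, 8.46, 8.72 and 7.35 in KP, and 7.04, 7.49 and 8.36 at 0h. KM was again above all other arrays, and KR minus KM was -3.21 ± 0.51 (limma adjusted p = 0.00152). KR was also lower than KP, with a difference of -1.91 ± 0.51 (adjusted p = 0.0162), a call lost without KP replicate 2, where the difference was -1.64. KM minus KP was 1.30 ± 0.51 (adjusted p = 0.185), which did not pass. As flanks, 3 annotated genes with a probe set were read on either side of each run, and none of the 12 passed both thresholds in KR against KM, KR against KP or KM against KP. In KP against 0h, LOC4329734 was higher and LOC4335086 lower.

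**Figure D3:**
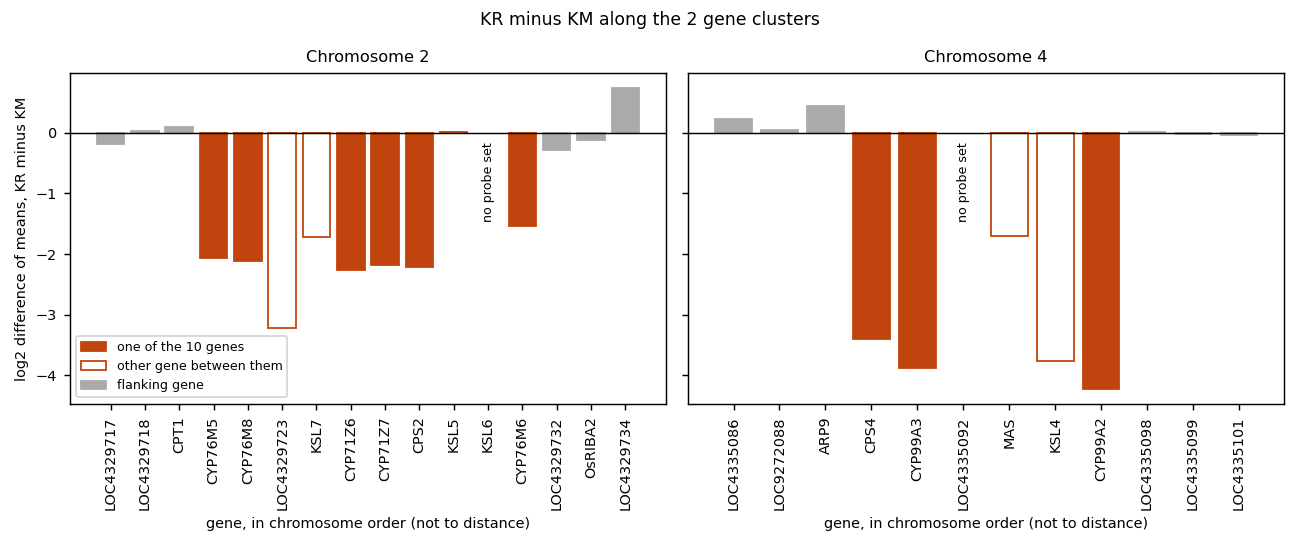
Difference of mean log2 intensity, KR minus KM (vertical axis), for genes in chromosome order (horizontal axis, not to distance), with filled bars for the 10 genes, open bars for other genes between them and grey bars for flanking genes. Bars inside the runs reach -1.53 or lower except KSL5, which is at 0.02, while the grey bars stay between -1 and 1.

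The KSL enzymes and later steps that lie outside the 10 were taken from a list of 13 genes, of which 6 could be matched by symbol to a probe set. In KR against KM, 4 of the 6 passed both thresholds downward and none upward, with a median of -1.71 beside 0.04 for all probe sets. KSL4, which makes the pimaradiene backbone of momilactones and lies between MAS and CYP99A2, read 2.92, 3.15 and 2.64 in KR, 6.66, 6.51 and 6.85 in KM, 5.64, 6.65 and 4.66 in KP, and 2.96, 4.36 and 7.05 at 0h. Its KR arrays were near background, with a KR minus KM difference of -3.77 ± 0.90 (limma adjusted p = 0.00982), and 0h replicate 3 stood above all KP arrays. MAS, the momilactone A synthase of the same run, read 3.41, 3.25 and 3.05 in KR, 5.28, 5.02 and 4.53 in KM, 4.70, 5.37 and 4.46 in KP, and 4.48, 3.59 and 4.49 at 0h. KR was the lowest group without overlap, and the difference to KM was -1.71 ± 0.32 (adjusted p = 0.00306). That of LOC4329723 in the chromosome 2 run was larger in size, at -3.21, so outside the 10 the 2 runs overlapped. When intensities under 16 were set to 16, the differences were -2.67 for KSL4 (adjusted p = 0.084) and -0.95 for MAS (adjusted p = 0.0744), and neither passed.

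The ent branch had 2 such genes. KSL7, the cassadiene synthase of phytocassane synthesis, read 7.42, 7.16 and 7.18 in KR, 8.97, 9.09 and 8.85 in KM, 7.48, 7.94 and 7.51 in KP, and 7.10, 6.96 and 7.59 at 0h. KM stood above every other array, with a KR minus KM difference of -1.72 ± 0.18 (limma adjusted p = 0.000263) and a KM minus KP difference of 1.33 ± 0.18 (adjusted p = 0.0019). It was the only one of the 6 to pass both thresholds in KM against KP, where the median was 0.56. A second probe set of KSL7 had differences of -0.70 ± 0.09 and 0.62 ± 0.09, both under 2-fold. CYP701A8, a kaurene oxidase relative that hydroxylates ent-diterpenes of the phytoalexins, read 7.31, 6.94 and 6.18 in KR, 9.83, 9.71 and 9.97 in KM, 8.67, 9.15 and 8.00 in KP, and 7.59, 7.33 and 8.95 at 0h. KM was highest and KR lowest without overlap, at -3.02 ± 0.46 (adjusted p = 0.00128) for KR minus KM. KM minus KP was 1.23 ± 0.46 (adjusted p = 0.164). KSL5 and KSL10, synthases of other ent-dienes, were near background on all 12 arrays, between 2.40 and 2.58.

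In KR against KP, 3 of these 6 genes passed both thresholds downward, with a median of -1.001 over the 6. They were KSL4 (-2.75 ± 0.90, limma adjusted p = 0.0349), MAS (-1.61 ± 0.32, adjusted p = 0.00412) and CYP701A8 (-1.79 ± 0.46, adjusted p = 0.0141), while KSL7 had -0.39 ± 0.18 (adjusted p = 0.104). Without KP replicate 2 only 1 of the 3 calls remained, and the call of KSL4 also went when any 1 of KR replicates 1, 2 and 3, KM replicate 3 or KP replicate 1 was left out. None of the 6 passed in KP against 0h, where the median was 0.54, though without 0h replicate 3 KSL4 did, at 1.99.

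A list of 15 genes, the upstream list, held the plastid isoprenoid pathway before the branch point and also gibberellin synthesis after it. Of these, 10 had a probe set. As 1 list they showed no common direction. In KM against KP, 1 rose, 2 fell and 7 did not pass, with a median of 0.03, and in KR against KM 1 rose, 1 fell and 8 did not pass, with a median of -0.12. The parts differed in KM minus KP. The gibberellin genes KAO (1.22), KO2 (0.60), CPS1 (0.47) and KS1 (0.28) were all positive, and only KAO passed. Of the plastid genes, DXS1 (-2.17), HDR (-1.04), HDS (-0.42), MCS (-0.21) and DXR (-0.14) were negative and CMK (0.19) positive. Only DXS1 and HDR of these passed. In KR minus KM neither part had a common sign. DXS2 and DXS3, for the first step of the plastid pathway, and GGPPS1, for geranylgeranyl diphosphate itself, were listed but not matched. DXS1, the only gene read for that first step, ran opposite to the phytoalexin genes in the brighter of its 2 probe sets. It read 8.81, 9.25 and 9.24 in KR, 6.37, 6.48 and 6.58 in KM, 8.82, 8.51 and 8.61 in KP, and 9.77, 9.66 and 9.31 at 0h. KM was the lowest group by over 1 unit, with differences of 2.62 ± 0.15 for KR minus KM (limma adjusted p = 1.68e-05) and -2.17 ± 0.15 for KM minus KP (adjusted p = 5.68e-05). HDR, the last enzyme of the plastid pathway, fell in KM against KP, with a difference of -1.04 ± 0.06 (adjusted p = 1.22e-05).

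CMK, a kinase of the same pathway, fell in KR against KM (-1.08 ± 0.16, limma adjusted p = 0.00112), a call lost without KM replicate 1, where the difference was -0.99. KAO, a P450 of gibberellin synthesis, rose in KM against KP (1.22 ± 0.21, adjusted p = 0.00569). CPS1, which makes ent-copalyl diphosphate for gibberellin and so is the counterpart of CPS2, read 6.20, 5.87 and 6.32 in KR, 5.92, 5.52 and 5.54 in KM, 5.10, 5.14 and 5.35 in KP, and 5.43, 5.52 and 5.62 at 0h. Its KR arrays were the highest group mean, and KR minus KP was 0.93 ± 0.14 (adjusted p = 0.00121), under 2-fold. No gene of this list passed both thresholds in KR against KP or KP against 0h. For KR minus KP 2 did without KR replicate 2 or KP replicate 3 and 1 without KP replicate 2, and for KP minus 0h 1 did without 0h replicate 3 or KP replicate 1.

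**Figure D4:**
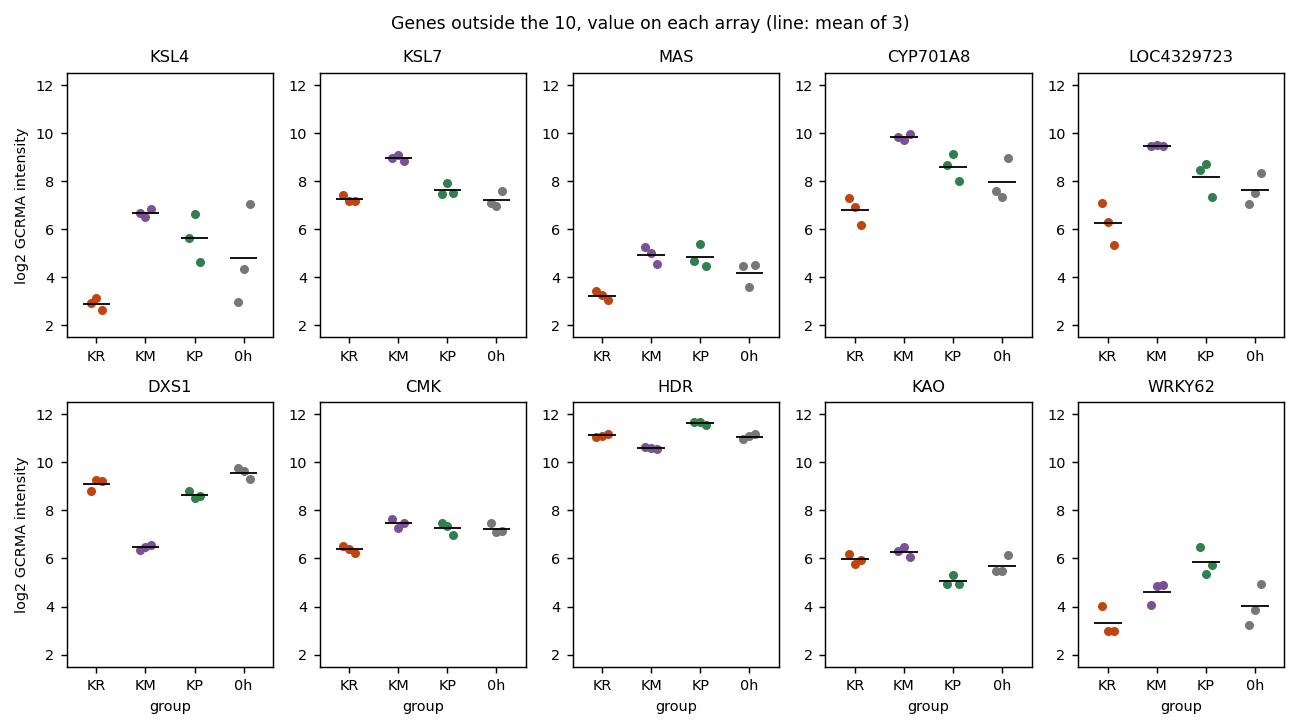
Log2 intensity (vertical axis) of 10 genes outside the described set on each array, by group (horizontal axis: KR, KM, KP, 0h), with points for arrays and a line for the mean of 3. KSL7, CYP701A8 and LOC4329723 have every KM array above all others, while for DXS1 every KM array, at 6.37 to 6.58, is below all others.

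Of 8 genes listed as regulators of this pathway or of rice defence, 3 had a probe set. WRKY62, a WRKY transcription factor, read 4.01, 2.98 and 2.96 in KR, 4.08, 4.86 and 4.88 in KM, 6.46, 5.33 and 5.72 in KP, and 3.23, 3.86 and 4.95 at 0h. KP was its highest group, unlike the 9 genes. It was lower in KR than in KP (-2.52 ± 0.50, limma adjusted p = 0.00423) and higher in KP than at 0h (1.83 ± 0.50, adjusted p = 0.0219), the last call lost without 0h replicate 1, 0h replicate 2, KP replicate 1 or KP replicate 3. KR minus KM was -1.29 ± 0.50 (adjusted p = 0.0604), and it passed without KR replicate 1 (-1.64), 0h replicate 1 or 0h replicate 3. WRKY76, a repressor of defence genes, read 9.49, 7.52 and 7.52 in KR, 6.83, 7.83 and 7.76 in KM, 9.94, 9.34 and 8.75 in KP, and 8.88, 8.90 and 8.57 at 0h, and passed in no comparison of the fit over all probe sets. Without KR replicate 1, far above the other KR arrays, it passed for KM minus KP (-1.87) and for KR minus KP (-1.83). NPR1, a co-activator of the salicylate response, also passed in none of that fit, with 0.60 ± 0.25 for KR minus KM (adjusted p = 0.0784). Without KR replicate 2 it passed for KR minus KP (1.02), and without 0h replicate 3 for KP minus 0h (1.16).

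Of 5 other defence genes listed only PBZ1, a pathogenesis-related protein, could be matched. It read 12.36, 12.19 and 11.37 in KR, 13.27, 13.75 and 13.73 in KM, 13.76, 13.03 and 13.02 in KP, and 9.05, 9.20 and 9.60 at 0h. KM and KP overlapped, KR lay below both, and 0h was lowest. Its differences were -1.61 ± 0.30 for KR minus KM (limma adjusted p = 0.00331), -1.30 ± 0.30 for KR minus KP (adjusted p = 0.00905) and 3.99 ± 0.30 for KP minus 0h (adjusted p = 9.32e-06). Without KR replicate 3 the KR minus KP difference was -0.997 and the call was lost.

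Outside the 10, the genes whose pattern was most like theirs were sought among 1257 named probe sets whose group means spanned at least 1 unit. Likeness was Pearson r over the 12 arrays to the mean of the 10 genes after each was centred on its own mean. The 8 highest were OPR10 (0.980), LAC24 (0.975), AOX1 (0.956), GLO3 (0.942), CYP701A8 (0.940), LPR1 (0.938), KSL7 (0.933) and GSTU6 (0.930). They were chosen for this likeness, so the values given here carry no test. OPR10, an oxophytodienoate reductase family gene, read 7.54, 7.46 and 7.27 in KR, 10.09, 10.07 and 10.05 in KM, 9.35, 9.80 and 9.14 in KP, and 7.31, 7.53 and 8.33 at 0h. Its KM arrays were above all KP arrays, and all KR arrays were below them. LAC24, a laccase, read 6.11, 5.11 and 6.08 in KR, 10.38, 10.14 and 10.20 in KM, 7.77, 8.39 and 7.85 in KP, and 5.53, 5.75 and 7.31 at 0h. In both genes, as for 8 of the 9 genes, KP replicate 2 and 0h replicate 3 were the highest arrays of their groups. AOX1, an alternative oxidase, was 6.47 ± 0.28 in KR, 9.04 ± 0.18 in KM, 8.43 ± 0.26 in KP and 6.73 ± 0.54 at 0h (SD, n = 3 each). GLO3, LPR1 and GSTU6 had KR minus KM differences of -1.003 ± 0.09, -2.28 ± 0.21 and -2.09 ± 0.41.

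**Figure D5:**
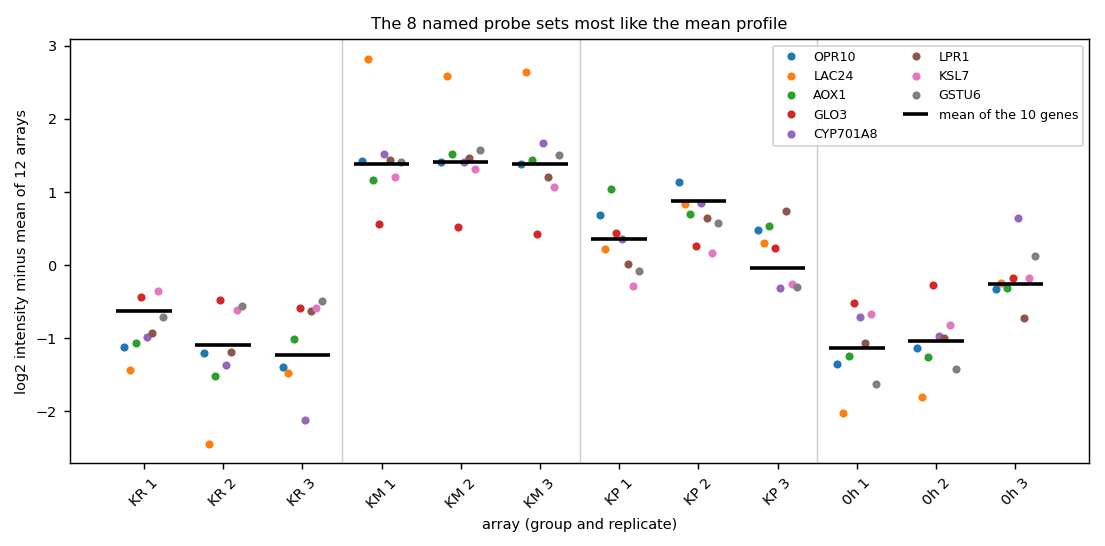
Log2 intensity minus the mean of 12 arrays (vertical axis) on each array (horizontal axis) for the 8 genes most like the set, with black bars for the mean of the 10 genes. The black bars stand at 1.38 to 1.41 in KM, -0.04 to 0.88 in KP, and below 0 on all KR and 0h arrays.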

How the data were processed

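Total RNA of 12 seedling samples was hybridised by the authors to 1-colour Affymetrix rice arrays. Scans were read with GCOS 1.2.1, according to the submitters' processing notes, and normalised with GCRMA (ArrayAssist), according to the methods. What the authors deposited is 1 linear intensity per probe set and array, so probe summaries, not scans, were the start here. The number of arrays limits the precision. GCRMA pulls dim probe sets to a common background, which flattens low values.

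Intensities were put on the log2 scale after a floor of 1, with 0 values under it. limma 3.58.1 (R 4.3.3) was fitted with 1 mean per group over all 12 arrays, without a replicate block, and the Benjamini-Hochberg adjustment ran over 57258 probe sets. A call needed an adjusted p under 0.05 and a 2-fold difference, the thresholds of the study, whose own t-test was an alternative. Each group was read from array titles and source names. Genes were named through the array's annotation and RefSeq gene tables, 22436 probe sets having 1 gene. Lists were matched by symbol or synonym, and the brightest probe set stood for a gene. Of the synthesis list 7 of 13 matched and 6 had a probe set, of the upstream list 11 and 10 of 15, of the regulators 3 of 8, and of other defence genes 1 of 5.

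The named genes were the 10 members and their other probe sets, the whole synthesis list, from the other lists those called in any comparison plus up to 4 with the smallest adjusted p in KR minus KM, and the 8 most alike. LOC4329723 and the flanking genes were named for their position, LOC4329723 after its values were seen. Members and lists were chosen with earlier results of these data known. The replicate numbers were not treated as pairs. Alternatives covered normalisation, low values, the arrays in the fit, pairing, probe sets, the test, the fold threshold and each array left out. The fit was tested on simulated data. No sequence was read here.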

Additional observations from a re-analysis of the deposited data

How the results depend on the processing

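Of 4068 values of single genes under the alternatives, 76 changed sign, 0 of them for a difference past the thresholds in the reported fit. Among the 10 genes these were CYP76M7 near 0, CPS2 and CYP71Z7 in KR minus KP (0.02 and 0.40 without KR replicate 3, and 0.15 for CYP71Z7 without KP replicate 2) and CPS2 in KP minus 0h (-0.02 without 0h replicate 1, -0.19 without KP replicate 2). KSL5 and KSL10, near background, changed sign in KR minus KP with either rescaling of the arrays (-0.05 and -0.03 with quantile normalisation, -0.10 and -0.08 with equal medians). With quantile normalisation, equal array medians or a fit of the compared groups alone, the median differences of the 10 genes and the counts past the thresholds stayed within 1.5 times of the reported ones. With intensities floored at 16, 1 of the 10 genes passed in KM against KP, 2 of the other synthesis genes in KR against KM and 0 in KR against KP; the cause was not tested. With the mean over the probe sets of a gene, 1 of the 10 passed in KM against KP and 0 of the other synthesis genes. With the methods' t-test 1 of the 10 passed in KM against KP, 3 in KR against KP and 2 in KP against 0h; the cause was not tested. With no fold threshold the upstream genes passing were 2 higher and 3 lower for KM minus KP and 3 higher and 2 lower for KR minus KM. They were 4 higher and 5 lower for KR minus KP and 3 higher and 1 lower for KP minus 0h. The share of all probe sets passing this way was not counted, so nothing is read from these numbers. With a group mean of at least 4, 2 of the other synthesis genes passed in KM against KP, where fewer probe sets were tested, CYP701A8 (adjusted p = 0.0424) being the one gained, and WRKY76 (0.0136) and LOC4329723 (0.0496) passed there and WRKY62 (0.0408) in KR against KM.

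With the replicate number as a block, 2 of the 10 genes passed in KP against 0h, in place of 4, and KSL4 lost its call in KR against KP; no other count moved by over 1.5 times. Same-numbered arrays correlated at -0.113 to 0.162 in their deviations over 18 pairs, 3 of them above 0.1. By this measure 0 arrays correlated best with their own number. Whether same-numbered samples shared a batch was not tested.

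With 1 array left out, the median of the 10 genes ran from 0.59 to 1.24 in KM minus KP, from -2.56 to -2.06 in KR minus KM, from -1.499 to -0.85 in KR minus KP and from 0.69 to 1.36 in KP minus 0h. The number of the 10 past the thresholds ran from 1 to 3, 9 to 9, 4 to 6 and 2 to 6 in the same comparisons. That of the other synthesis genes ran from 1 to 1, 4 to 4, 1 to 3 and 0 to 1, and that of the upstream genes from 3 to 3, 1 to 2, 0 to 2 and 0 to 1. Among single genes, the methods' t-test ended the calls of KAO in KM against KP, of CYP701A8, LOC4329723 and PBZ1 in KR against KP, and of WRKY62 in KP against 0h. The floor at 16 also ended those of CYP701A8 and LOC4329723 in KR against KP. A fit of the compared groups alone ended those of LOC4329723 and PBZ1 in KR against KP and of WRKY62 in KP against 0h. With 3 arrays a group and probe sets near background, the size of the CYP76M6, CYP76M5 and KSL4 differences is uncertain.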
